A study of Mus musculus with 6 samples.

Results

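The genes described are 8 transcription factor genes of pancreatic endoderm, Pdx1, Hnf4a, Hnf4g, Foxa1, Foxa2, Foxa3, Onecut1 and Prox1, taken by symbol from the 55367 gene rows of each count table. Counts came from 6 RNA-seq libraries labelled as acinar cells of mouse pancreas, the cells that secrete digestive enzymes. All 6 libraries, numbered replicates 1 to 6, formed 1 group, from untreated mice of genotype Pdx1-Cre; Klf5-mCherry-CreERT2, and no wild-type or second group was analysed here. Each started from 300 GFP-positive cells taken by sorting, whose RNA was amplified for 12 cycles by an adapted Smart-seq2 method. The genotype label names no GFP reporter, and age and sex are not given. Pdx1-Cre expresses Cre recombinase from Pdx1 regulatory sequence, which is active in the progenitors of acinar, duct and islet cells alike, so the driver does not by itself mark acinar cells. No label ties the libraries to separate animals, so p-values across them reflect only the spread between these samples, which may be technical.

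The members divide by family. Foxa1, Foxa2 and Foxa3 encode forkhead proteins that can bind closed chromatin, and in the mouse Foxa1 and Foxa2 together are required for Pdx1 expression and pancreas growth. Hnf4a and Hnf4g encode related nuclear receptors of endoderm epithelia. Pdx1 encodes the homeodomain factor without which the pancreas does not form, and it is kept high in adult beta cells. Onecut1 (Hnf6) encodes a cut homeodomain factor of progenitors and ducts, and Prox1 a homeodomain factor of progenitors that is also the master factor of lymphatic endothelium.

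Foxa3 and Foxa2 were the members that stood clear of background reads over the whole gene span in all 6 libraries. They had 4.95 ± 0.853 and 2.16 ± 0.776 TPM (SD, n = 6), a level per exon length. Foxa1, their close relative, had 5 counts in all and was not detectable over background. Pdx1 and Hnf4a were low, at 0.732 ± 0.453 and 1.34 ± 0.885 TPM, and were parted from whole-span background in 5 and 4 libraries. Over the bases free of other genes, a setting chosen after the data were seen, Hnf4a was parted from it in all 6. Hnf4g and Prox1 had their highest TPM in replicate 5, where their counts were near background, and Onecut1 could hardly be counted because another gene covers it.

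Total counts ran from 4670819 to 7072270 per library, and ribosomal RNA genes took 38.1% to 60.9% of them. Counts cover whole gene spans, introns included, so a long gene collects stray reads. This background was measured as counts per Mb over 1408 olfactory receptor genes spanning 8.18 Mb, which acinar cells are not known to use. It was 24.9 to 118 counts per Mb in 5 libraries and 347 in replicate 5, which stood apart. The 8 acinar enzyme markers summed to 115841 to 408422 TPM (counts per kb of exon, scaled to the same total in each library). All 8 exceeded 3 times background in each of the 6 libraries, a rule that 12.3% of 20381 protein-coding genes met. Of the other markers, 5 of 8 duct genes, 1 of 11 islet genes (Ins1), 1 of 5 myeloid genes (Lyz2), and none of 6 blood endothelial, 3 lymphatic, 7 fibroblast and stellate, 5 hepatocyte and 4 intestinal genes met it. Because these are bulk samples, fewer cells expressing a gene and less RNA per cell cannot be told apart.

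The windows at which the members start are shown because some lie under other counted genes, where reads were lost, and because the Foxa paralogues, which differ most in level, can be compared there. RefSeq windows of 300 bases (build GRCm38.p6, 250 before and 50 after the start, gene strand, 5′ to 3′) were found for 7 members, all but Hnf4g, and the most upstream of the 3 Foxa2 windows is shown. Capitals mark matches, on either strand, to 5 motifs. The FOXA core was searched as TGTTTAC. The core of an HNF4 site was searched as CAAAGTCCA. The TATA box was searched as TATAAA. The GC box was searched as GGGCGG. The CCAAT box was searched by the letters of its name. No matches to different motifs overlapped in the windows shown.
Foxa3, chr7:19023490-19023789, minus strand: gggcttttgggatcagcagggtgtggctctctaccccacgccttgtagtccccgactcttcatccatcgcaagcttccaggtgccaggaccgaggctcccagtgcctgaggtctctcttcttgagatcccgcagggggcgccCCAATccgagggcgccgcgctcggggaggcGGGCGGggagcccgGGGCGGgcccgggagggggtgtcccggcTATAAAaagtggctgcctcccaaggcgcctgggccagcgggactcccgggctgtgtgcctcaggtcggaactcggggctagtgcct
Foxa2, chr2:148046920-148047219, minus strand: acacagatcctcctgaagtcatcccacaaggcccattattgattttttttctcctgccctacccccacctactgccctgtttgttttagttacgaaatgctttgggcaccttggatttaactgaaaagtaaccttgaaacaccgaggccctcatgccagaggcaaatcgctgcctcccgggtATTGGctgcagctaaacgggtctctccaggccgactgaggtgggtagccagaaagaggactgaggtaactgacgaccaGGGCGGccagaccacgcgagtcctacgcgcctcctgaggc
Foxa1, chr12:57546062-57546361, minus strand: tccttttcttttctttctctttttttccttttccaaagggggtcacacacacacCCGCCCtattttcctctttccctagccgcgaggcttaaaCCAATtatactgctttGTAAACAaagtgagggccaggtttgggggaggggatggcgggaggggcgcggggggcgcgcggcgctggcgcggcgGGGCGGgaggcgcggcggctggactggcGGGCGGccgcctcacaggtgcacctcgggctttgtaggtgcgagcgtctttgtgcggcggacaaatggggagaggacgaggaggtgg
Pdx1, chr5:147269847-147270146, plus strand: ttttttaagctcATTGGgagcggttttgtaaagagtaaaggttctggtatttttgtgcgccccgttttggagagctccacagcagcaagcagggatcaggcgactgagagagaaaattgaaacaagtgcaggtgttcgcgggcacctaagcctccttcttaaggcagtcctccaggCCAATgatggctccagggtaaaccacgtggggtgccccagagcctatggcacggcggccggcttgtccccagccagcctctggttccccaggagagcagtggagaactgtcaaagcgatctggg
Hnf4a upstream start, chr2:163506607-163506906, plus strand: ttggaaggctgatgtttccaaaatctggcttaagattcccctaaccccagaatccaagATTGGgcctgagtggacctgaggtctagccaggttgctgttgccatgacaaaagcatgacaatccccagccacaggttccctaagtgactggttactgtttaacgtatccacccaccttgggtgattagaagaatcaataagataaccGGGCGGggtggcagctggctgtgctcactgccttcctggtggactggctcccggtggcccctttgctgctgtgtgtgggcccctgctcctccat
Hnf4a downstream start, chr2:163546905-163547204, plus strand: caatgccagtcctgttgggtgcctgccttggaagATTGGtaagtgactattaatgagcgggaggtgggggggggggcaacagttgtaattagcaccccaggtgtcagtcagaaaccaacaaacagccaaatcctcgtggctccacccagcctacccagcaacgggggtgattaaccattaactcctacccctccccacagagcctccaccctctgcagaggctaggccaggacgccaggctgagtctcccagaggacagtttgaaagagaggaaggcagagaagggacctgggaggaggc

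The Foxa3 window held a TATA box at bases 215 to 220, a CCAAT box at bases 143 to 147 and 2 GC boxes. Among all 32851 windows of the table, 13.6% held the TATA box, 37.4% the CCAAT box and 35.7% the GC box. The Foxa2 window held 1 CCAAT box and 1 GC box, and the Foxa1 window 1 CCAAT box, 3 GC boxes and 1 FOXA core, which 3.65% of all windows held. The ratio of observed to expected CpG was 0.929 for Foxa1, 0.619 for Foxa3 and 0.548 for Foxa2, against a median of 0.384 over all windows. The other Foxa2 windows had ratios of 0.767 and 0.680, so no order of Foxa3 and Foxa2 follows, and the most downstream of them held a TATA box. Both Hnf4a windows were poor in CpG, with ratios of 0.183 upstream and 0.163 downstream, and the Pdx1 window had 0.485. The HNF4 core, held by 0.475% of all windows, had no match in the 6 windows shown. A match is a run of letters and not a measured binding site.

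How much of each gene could be counted differed. None of 1227 protein-coding genes lying wholly inside other counted genes had a single count in any library, against 10.7% without counts among 11810 genes free of overlap, so bases shared by 2 counted genes yielded no counts on either strand. Foxa1, Foxa2 and Foxa3 overlapped no other gene. Onecut1 (chromosome 9, 74861921 to 74891781, plus strand, build mm10) lay inside the noncoding gene Gm20649 except for 305 of its 29861 bp, which left 7.42% of its exon bases countable. For Pdx1 (chromosome 5, 147269959 to 147275848, plus strand) the start lay under the antisense gene Plut, and 68.1% of the exon bases were free of it. The upstream start of Hnf4a (chromosome 2, 163506808 to 163572910, plus strand) lay under the antisense gene Hnf4aos, and 47.2% of the span but 96.3% of the exon bases were free of other genes, the downstream start among them. Reads from the first bases of transcripts made at the Pdx1 start and the upstream Hnf4a start shown above therefore could not enter the counts.

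**Figure D1:**
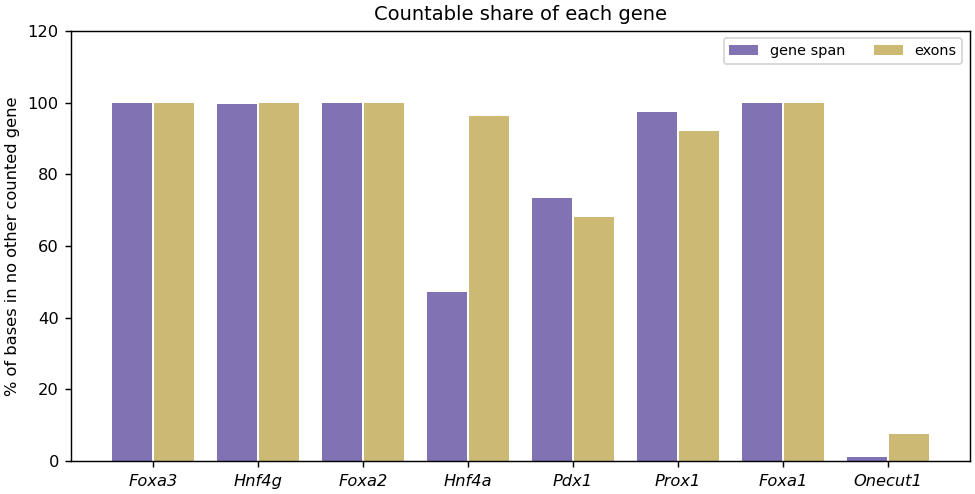
Share of the bases of each endoderm factor gene that lie in no other counted gene, in percent (y axis), for the whole span (left bar) and the exons (right bar). Onecut1 had 1.02% of its span and 7.42% of its exons countable, Hnf4a 47.2% and 96.3%, and Pdx1 73.5% and 68.1%.

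Of the Foxa paralogues, Foxa3 and Foxa2 stood over background in every library and Foxa1 did not. Foxa3 (chromosome 7, 19013284 to 19023538, minus strand) had 38, 44, 36, 47, 26 and 37 counts in replicates 1 to 6. Scaled to TPM this was 3.90, 5.97, 4.27, 5.88, 5.07 and 4.59, a mean of 4.95 ± 0.853 (SD, n = 6). Scaled by exon length it was the most abundant member, but by whole gene span the means were 2.04 TPM for Foxa2 and 1.63 TPM for Foxa3. The coefficient of variation of Foxa3, 0.172, was the lowest of the members. Foxa3 also had the most counts, 228 in all, and the part of counting error in this spread was not tested. Expected background came to 2.74% of what was counted, which was 7.30 times background in replicate 5 and 30.6 to 172 times in the other libraries.

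Foxa2 (chromosome 2, 148042877 to 148046969, minus strand) had 19, 22, 14, 19, 21 and 16 counts in replicates 1 to 6. Its TPM was 1.67, 2.57, 1.43, 2.04, 3.52 and 1.70, a mean of 2.16 ± 0.776 (SD, n = 6). Every library lay far over background, from 14.8 times in replicate 5 to 215 times in replicate 2, with background at 2.25% of the total. Foxa1 (chromosome 12, 57540628 to 57546916, minus strand) had 0 counts in replicates 1 to 3, and 1, 2 and 2 counts in replicates 4 to 6. Over all libraries that was 5 counts, set against 3.83 expected as background, a ratio of 1.31 (exact Poisson 95% interval 0.424 to 3.05). Foxa1 RNA was thus not detectable over background at this depth, where a count of 0 allows up to 3 counts as a one-sided limit (3.69 by the two-sided interval), or, for 3 counts, 0.425, 0.540 and 0.471 CPM (counts scaled to a fixed total) in replicates 1, 2 and 3. Such intervals and limits take in counting error alone.

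Differences between paralogues were tested within libraries on log2(TPM + 1), a scale that compresses differences at low levels, by flipping the signs of the 6 differences in all 64 ways (exact, two-sided), for 4 pairs. Foxa3 exceeded Foxa2 by 0.93 ± 0.27 (SD, n = 6), with means of 2.56 and 1.63, in 6 of 6 libraries (exact p = 0.031). The difference was 0.88 within replicates 4 to 6 and 0.99 within replicates 1 to 3. Foxa3 exceeded Foxa1 by 2.46 ± 0.23 and Foxa2 exceeded Foxa1 by 1.52 ± 0.27, each in 6 of 6 libraries (exact p = 0.031 for both). These p-values are unadjusted and are the smallest that 6 libraries allow. With Foxa1 at 0 counts in replicates 1 to 3, its differences there could not be negative, and their size depended on the 1 added to TPM. With 0.1 added in place of 1, Foxa3 minus Foxa1 was 4.99, Foxa2 minus Foxa1 3.78 and Foxa3 minus Foxa2 1.21. Per base of the whole gene span in place of exons the Foxa3 minus Foxa2 difference was -0.19 (exact p = 0.094), with exons taking 2037 of the 10255 bp of Foxa3 and 2370 of the 4093 bp of Foxa2. With no scaling by length the difference was 0.82 (exact p = 0.031), so the order turned only with whole-span scaling among the settings tried. The longest identical run between annotated transcripts was 38 nt for Foxa1 and Foxa2, and 20 nt for Foxa3 with either.

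The nuclear receptor genes were harder to part from background. Hnf4a had 26, 20, 18, 17, 38 and 16 counts in replicates 1 to 6, and its TPM was 1.12, 1.15, 0.901, 0.898, 3.13 and 0.837. The mean was 1.34 ± 0.885 TPM (SD, n = 6), with replicate 5 far above the rest. Replicate 5 also had the highest expected background, 23.0 counts over the gene span. The counts of Hnf4a were 6.92 to 15.2 times background in replicates 1 to 3, 4.81 times in replicate 4, 1.66 times in replicate 5 and 2.05 times in replicate 6. Counted over the bases free of other genes, a setting chosen after the data were seen, the ratio was 3.34 to 30.6 and over 3 in 6 of 6 libraries.

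Hnf4g (chromosome 3, 3508030 to 3658052, plus strand), the longest member with 150023 bp, had 13, 17, 16, 17, 64 and 24 counts in replicates 1 to 6. The expected background was 3.89, 3.74, 5.91, 8.02, 52.1 and 17.7 counts, which is 60.5% of the counts in all. Hnf4g was over 3 times background in replicates 1 and 2 only, at 3.34 and 4.54 times. Its TPM was 1.03, 1.79, 1.47, 1.65, 9.67 and 2.30, with replicate 5 far above the rest. The mean of 2.98 ± 3.30 TPM (SD, n = 6) was 1.65 TPM without replicate 5 and 1.07 ± 0.476 TPM with background subtracted. The Hnf4a minus Hnf4g difference on log2(TPM + 1) was -0.56 ± 0.49, with Hnf4a higher in 1 of 6 libraries (exact p = 0.0625), and 0.10 per base of gene span (exact p = 0.031), so no order of these 2 genes is given. Their longest identical run was 17 nt.

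Pdx1, the gene whose regulatory sequence drives Cre, was low. It had 5, 8, 3, 4, 3 and 13 counts in replicates 1 to 6, and its TPM was 0.484, 1.02, 0.336, 0.473, 0.552 and 1.52. The mean was 0.732 ± 0.453 TPM (SD, n = 6), or 1.07 ± 0.666 TPM if scaled to the countable exon bases. The pooled counts were 10.04 times background (exact Poisson 95% interval 7.03 to 13.9). In 5 libraries the counts were 12.7 to 54.4 times background, and in replicate 5, with 3 counts, 1.47 times. The highest library, replicate 6, also had the highest sum of 11 islet markers, 1924 TPM, but replicate 4 with 869 TPM had a Pdx1 level among the lower ones, and the other libraries had 8.95 to 41.7 TPM of islet markers. None of the 11 islet markers was at 0 in all 6 libraries, and the part of islet RNA in the Pdx1 level was not tested. Which Pdx1 sequence the transgene carries is not given in the labels, so counts from the transgene and from the gene are not told apart.

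Prox1 (chromosome 1, 190118035 to 190170714, minus strand) was higher in some libraries than in others. It had 28, 22 and 14 counts in replicates 4 to 6, against 6, 4 and 7 counts in replicates 1 to 3. Expected background was 2.82, 18.3 and 6.22 counts in replicates 4 to 6, and 1.37, 1.31 and 2.07 in replicates 1 to 3. Replicate 4 thus stood 9.95 times over background, replicate 5 only 1.20 times and replicate 6 2.25 times, and replicates 1 to 3 stood 3.04 to 4.39 times over it. The mean was 0.466 ± 0.391 TPM (SD, n = 6), with 0.851, 1.04 and 0.421 TPM in replicates 4 to 6, and 0.149, 0.132 and 0.202 TPM in replicates 1 to 3.

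The library names carry a number whose meaning is not given and which differs between replicates 4 to 6 and replicates 1 to 3, so these sets were compared as a possible batch. Prox1 was higher in replicates 4 to 6 by 1.77 log2 units (SE 0.46, n = 3 and 3), which did not pass over all 8723 genes tested (edgeR quasi-likelihood test, adjusted p = 0.089). All 3 values lay above those of replicates 1 to 3, as did those of 15.5% of all genes tested. DESeq2 gave an adjusted p of 0.177 for it. Leaving out 1 library at a time gave 1.41 to 2.04 log2 units, with edgeR adjusted p of 0.063 to 0.30. Of the members tested, Hnf4g differed by 1.07 ± 0.54 (SE), Foxa3 by -0.25 ± 0.32, Foxa2 by -0.11 ± 0.38 and Hnf4a by 0.04 ± 0.44, and none passed (adjusted p of 0.25 to 0.96). Without replicate 5 the Hnf4g difference was 0.21, and the signs of Foxa2 and Hnf4a turned with single libraries left out. Pdx1, Foxa1 and Onecut1 had too few counts for the test. By this test 1 gene in all was higher and 0 lower, 0.0115% and 0% of those tested, and 2258 had an unadjusted p under 0.05. The counts were 512 and 203 by DESeq2, and 1656 and 561 by edgeR without replicate 4.

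Other measures also differed between these sets. Acinar markers summed to 115841 to 203655 TPM in replicates 4 to 6, against 350022 to 408422 TPM in replicates 1 to 3, with all 8 genes over 3 times background in all libraries. Ribosomal RNA genes took 59.9% to 60.9% of the counts in replicates 4 to 6, against 38.1% to 46.8% in replicates 1 to 3. The 4 intestinal markers, none over 3 times background in all libraries, summed to 0.983 to 6.09 TPM in replicates 4 to 6, against 0.156 to 0.448 TPM in replicates 1 to 3. Islet markers summed to 41.7 to 1924 TPM in replicates 4 to 6, against 8.95 to 37.4 TPM in replicates 1 to 3, with 1 of 11 genes over 3 times background in all libraries. Duct markers summed to 155 TPM in replicate 4, 67.0 and 46.6 TPM in replicates 5 and 6, and 65.0 to 101 TPM in replicates 1 to 3. Lymphatic markers (Lyve1, Pdpn and Flt4), which go with Prox1 in lymphatic endothelium, summed to 0.0619 TPM in replicate 4, where Prox1 stood farthest over background, with Lyve1 and Pdpn at 0 counts there. They summed to 4.37 and 1.23 TPM in replicates 5 and 6, and 0.0336 to 0.599 TPM in replicates 1 to 3. The part of other cells, ribosomal RNA or background reads in the Prox1 difference was not tested.

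**Figure D2:**
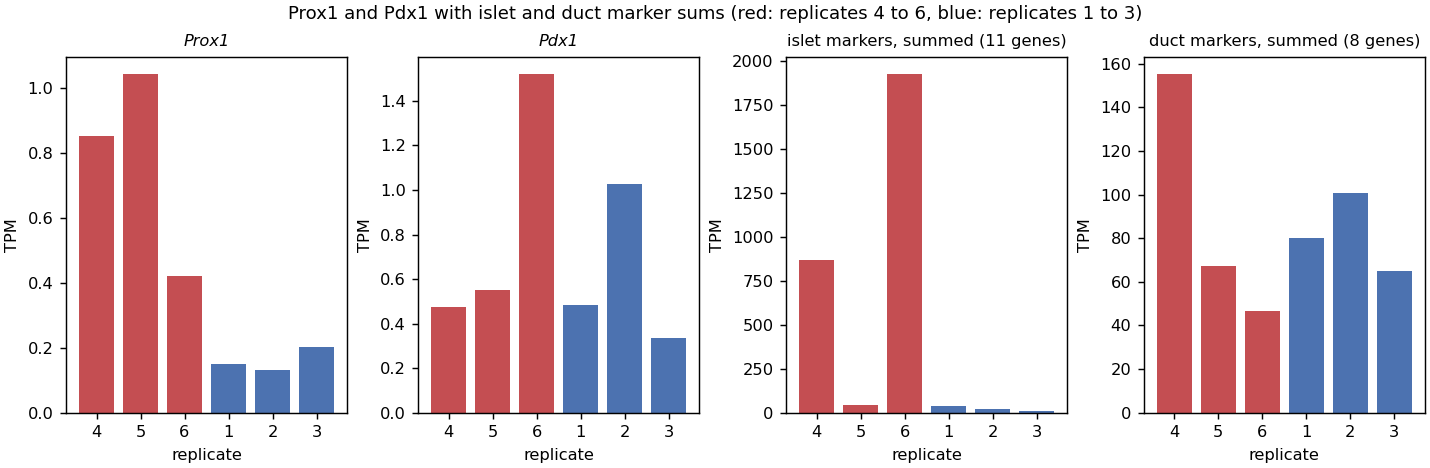
TPM (y axes) of Prox1, Pdx1, 11 islet markers summed and 8 duct markers summed in each library (x axis, replicates 4 to 6 left of replicates 1 to 3). Prox1 was 0.421 to 1.04 TPM in replicates 4 to 6 and 0.132 to 0.202 TPM in replicates 1 to 3, background included. Its counts were 9.95, 1.20 and 2.25 times background in replicates 4, 5 and 6, and 3.04 to 4.39 times in replicates 1 to 3. Islet markers were high in replicates 4 and 6 only.

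Onecut1 had 0, 1, 0, 1, 0 and 2 counts in replicates 1 to 6, or 0.042 ± 0.0507 TPM (SD, n = 6). Its 4 counts stood below the 18.2 expected over the whole span, but only 0.195 counts were expected over the 305 bp that could be counted. Its level was therefore not measured, and no absence is read from it. Scaled to its countable exon bases, it had 0.566 ± 0.684 TPM, from 4 counts.

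**Figure D3:**
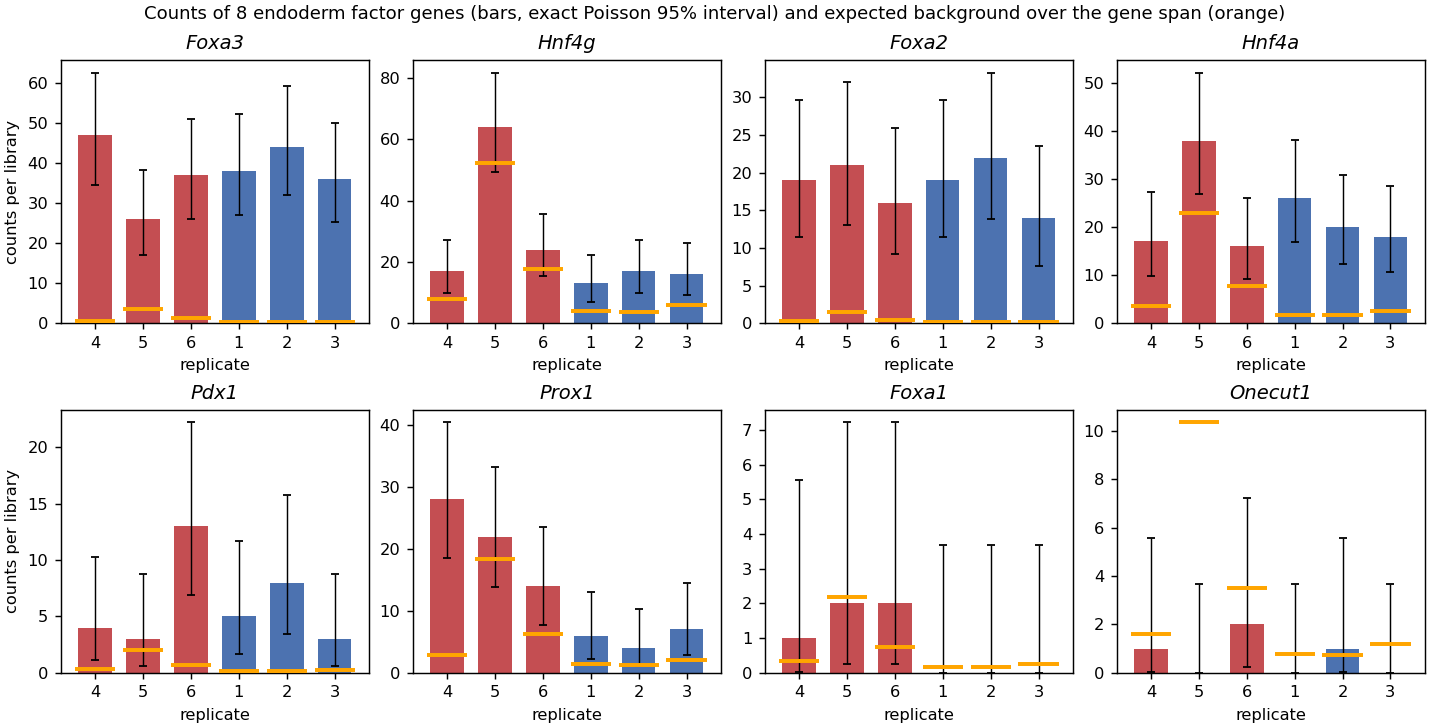
Counts per library (y axes) of the 8 genes, with exact Poisson 95% intervals, and the background expected over the gene span (orange lines), for replicates 4 to 6 (red) and 1 to 3 (blue). Foxa3 and Foxa2 stood far above the orange lines in every library, while the 64 counts of Hnf4g in replicate 5 lay near the 52.1 expected.

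Of the 8 members, 2 exceeded 3 times background in every library, Foxa2 and Foxa3, where 12.3% of protein-coding genes (2508 of 20381) did. Pdx1 was over that ratio in 5 libraries, Hnf4a and Prox1 in 4, Hnf4g in 2, and Foxa1 in none. Onecut1 was over it in none by its whole span, most of which could not be counted, and over its countable bases in 3, the libraries with 1 or 2 counts. Without replicate 5 the members were Foxa2, Foxa3 and Pdx1. The rule was then met by 6788 of 20381 protein-coding genes, against 2508 with all 6 libraries. Over countable bases only they were Foxa2, Foxa3 and Hnf4a, against 13.3% of 19175 genes. The median of the members on log2(TPM + 1) was 0.96, and that of all protein-coding genes 0.50.

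**Figure D4:**
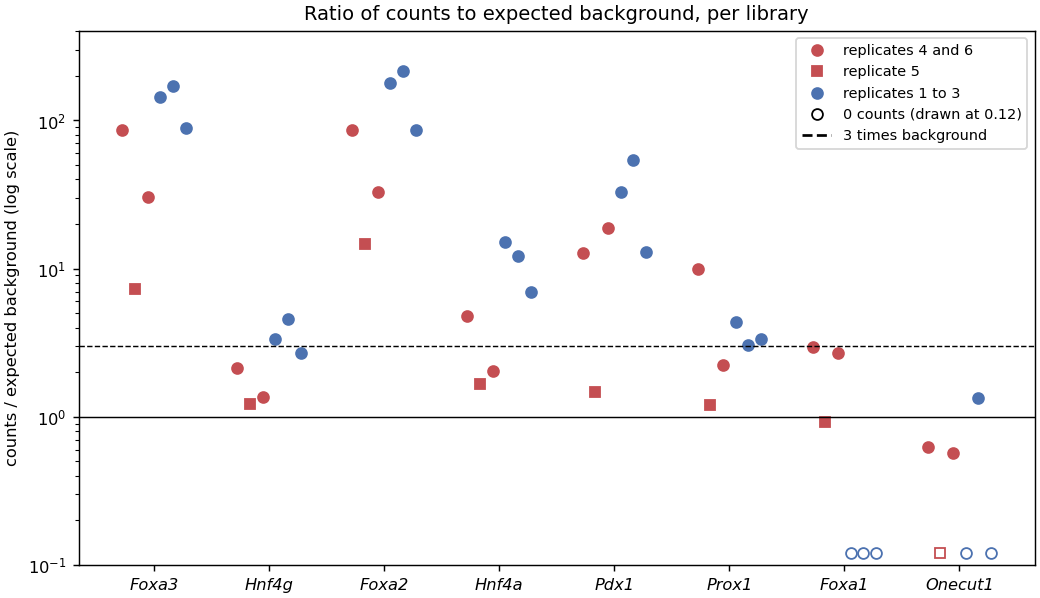
Ratio of counts to expected background (y axis, log scale) for each gene and library, with lines at 1 and at 3 times background. Foxa3 and Foxa2 lay above 3 in all 6 libraries, and replicate 5 (squares) gave the lowest ratio of Foxa3, Hnf4g, Foxa2, Hnf4a, Pdx1 and Prox1.

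By mean log2(TPM + 1) with background included, the values were 2.56 for Foxa3, 1.72 for Hnf4g, 1.63 for Foxa2, 1.16 for Hnf4a, 0.76 for Pdx1, 0.51 for Prox1, 0.10 for Foxa1 and 0.06 for Onecut1. Neither the place of Hnf4g, with 60.5% of its counts as background, nor that of Onecut1, hardly countable, is settled by these values. Expected background over the whole span also came to 76.6% of the counts of Foxa1, 39.6% of those of Prox1 and 29.8% of those of Hnf4a. Over countable bases only, which are 47.2% of the Hnf4a span, the shares were 80.5%, 40.5% and 14.8%. Scaled by the whole gene span, Hnf4a had a mean of 0.157 TPM and Pdx1 0.438 TPM, the other way round. Between neighbours, Foxa2 exceeded Hnf4a by 0.46 ± 0.23 (SD) and Prox1 exceeded Foxa1 by 0.41 ± 0.27, each in 6 of 6 libraries. For the other neighbours the mean difference was no larger than its SD, which describes the spread and is not a test. Foxa3 exceeded Hnf4g by 0.83 ± 0.84 and Hnf4a exceeded Pdx1 by 0.40 ± 0.61, each in 5 of 6. Pdx1 exceeded Prox1 in 4 of 6 libraries, by 0.24 ± 0.54. Hnf4g against Foxa2 (0.10 ± 0.61) and Foxa1 against Onecut1 (0.05 ± 0.14) were higher in 3 of 6. With background subtracted, Foxa3 (4.82 ± 0.865 TPM) and Foxa2 (2.12 ± 0.746 TPM) came before Hnf4g (1.07 ± 0.476 TPM). Among 52 transcription factor genes of the other lists, those nearest to Foxa3 by mean absolute difference in log2(TPM + 1) over 6 libraries were Nr5a2, an acinar nuclear receptor gene (0.23), and Creb3l1 (0.27). Nearest to Foxa2 were Stat3 (0.34) and Meis2 (0.35). Of these genes, Nr5a2, Stat3 and Meis2 were not over 3 times background in every library, with lowest ratios of 1.91, 2.01 and 1.55. Creb3l1 was, with a lowest ratio of 3.14, but not when only countable bases were used.

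Acinar transcription factors stood higher than the members by median, though the lists overlapped. The background rule was met by 5 of 7, all but Nr5a2 and Gata6. The median log2(TPM + 1) of the acinar factors was 3.47, against 0.96 for the members. Foxa3, at 2.56, lay above Nr5a2 (2.35) and Gata6 (1.01). Xbp1, a driver of secretory capacity, had 37.7 ± 14.3 TPM (SD, n = 6), Bhlha15 (Mist1) 28.5 ± 6.12, and the lowest, Gata6, 1.06 ± 0.486 TPM. Of 14 other progenitor factors only Sox9, the duct and progenitor HMG-box factor gene, met the rule, with 1.48 ± 0.541 TPM. Mnx1 and Neurog3 had 0 counts, and Neurog3 had no base free of other counted genes. No islet factor of 8 met it. Rfx6 and Mafa, the highest, had 0.631 ± 0.853 and 0.180 ± 0.287 TPM, and Neurod1, with 0 counts, had no free base either. The medians of these 2 lists were 0.25 and 0.15.

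**Figure D5:**
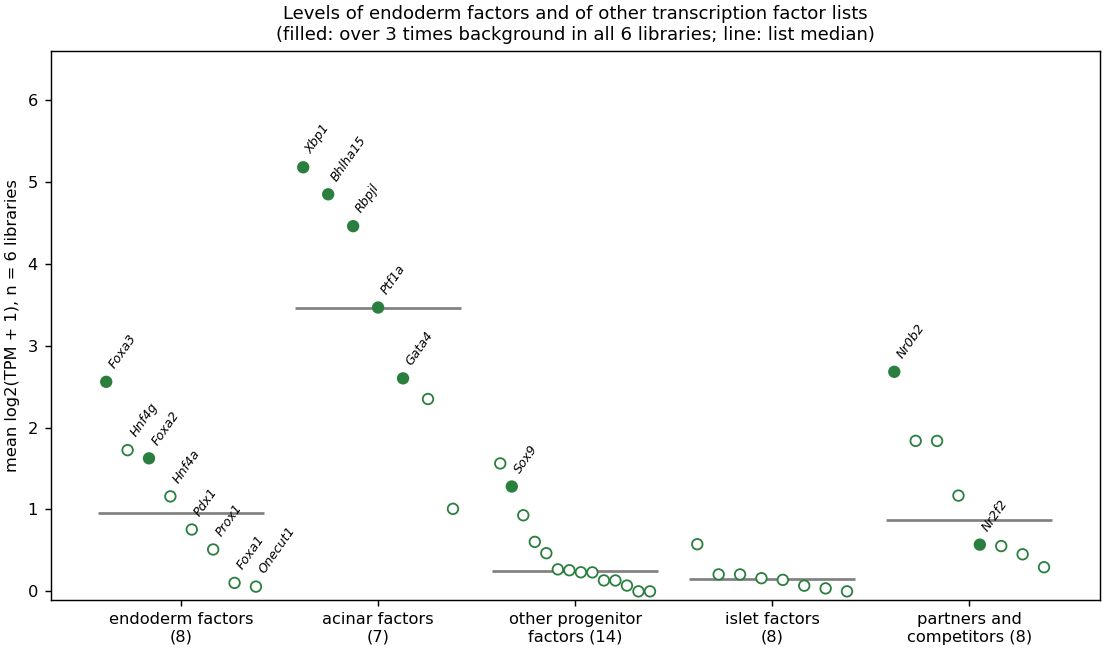
Mean log2(TPM + 1) over 6 libraries (y axis) of each gene of 5 transcription factor lists, filled for genes over 3 times background in every library, with list medians as lines. The median of the endoderm factors (0.96) lay below that of the acinar factors (3.47). The lists overlapped, with Foxa3 at 2.56 above Nr5a2 at 2.35 and Gata6 at 1.01.

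Among 8 genes of known partners or competitors of the members, 2 met the rule. Nr0b2 (SHP), a repressor that binds nuclear receptors including Hnf4a, had 5.59 ± 1.70 TPM (SD, n = 6). Nr2f2 (COUP-TFII) met the rule at 0.498 ± 0.217 TPM, and Nr2f1 was lowest at 0.303 ± 0.581 TPM. Of 10 textbook target genes in islet, liver or gut, Ins1 and Ttr met the rule. Ins2, the most abundant, ran from 4.97 to 1139 TPM and Ins1 from 2.27 to 627 TPM. Apoa1, a liver and gut target of Hnf4a, had 0 counts in all 6 libraries, with no other gene over it, while Iapp, also at 0 counts, had no free base.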

How the data were processed

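The authors deposited unnormalized read counts, 1 table per library with a row for each gene symbol. Per the submitters' processing notes the authors used Trim Galore 0.6.4, FastQC, STAR 2.7.9a, SAMtools and featureCounts with build mm10. The annotation release, strand setting and handling of multiply aligned reads are not given in the sources used here. The molecule label reads genomic DNA although the protocol describes RNA-seq. For the 55253 symbols listed with a single interval, the deposited length is that of the interval, introns included.

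From the counts, TPM used exon lengths of GENCODE M21 (55045 symbols, 99.95% of counts; otherwise the span), with ribosomal RNA in the total. Expected background was the olfactory receptor rate of a library times the gene span, and a gene over 3 times it in every library was called. The sign-flip test used all 64 sign patterns. Replicates 4 to 6 were compared with replicates 1 to 3 by edgeR 4.0.16 (TMM, filterByExpr, quasi-likelihood, Benjamini-Hochberg over all genes) and DESeq2 1.42.0. The SE of an edgeR difference was back-calculated, as its size divided by the square root of the F statistic. Rules and tests were tested on simulated data. The software was R 4.3.3 and Python 3.11.15 with scipy 1.17.1, pandas 2.3.3, numpy 2.4.6 and, for plots, matplotlib 3.10.9. The alternatives were other lengths, totals, pseudocounts, ratios, filters and left-out libraries. Named genes were all members, the 2 highest and the lowest of each other list, and the 2 nearest factors of each called member. Outside this rule, Nr2f2, Mnx1, Ttr and Iapp were named after their values were seen. Of the genes this rule takes, 2 are not reported here. Members and lists were chosen with earlier results of these data known.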

Additional observations from a re-analysis of the deposited data

Results flagged for a closer look

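Among 6 libraries, a highest or lowest value was set apart when its gap to the next exceeded 0.625 of the range (Dixon's test). With both ends looked at, chance does this in about 1 in 20 groups. There were 17 sets of values, and for the olfactory receptor background only the highest value was looked at. Replicate 5 had 3.13 TPM of Hnf4a, against 0.837 to 1.15 in the other libraries. It also had 9.67 TPM of Hnf4g, against 1.03 to 2.30. The same library had 347 counts per Mb over olfactory receptor genes, against 24.9 to 118. Prox1 stood 9.95 times over background in replicate 4, against 1.20 to 4.39 times in the others.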

How the results depend on the processing

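The 2 members over 3 times background stayed Foxa2 and Foxa3 with factors of 2 and 5 and with vomeronasal receptor genes added. They also stayed the same with any replicate but 5 left out. Pdx1 joined them without replicate 5 or when 5 of 6 libraries sufficed. Hnf4a joined them when only countable bases were used. The number of protein-coding genes was 3942 with a factor of 2, 1476 with 5, 6889 in at least 5 of 6 libraries, and 2516 to 6788 with 1 library left out, the highest without replicate 5. Leaving out 1 library gave 2.39 to 2.49 for Foxa3 minus Foxa1, 0.89 to 1.04 for Foxa3 minus Foxa2 and 1.45 to 1.58 for Foxa2 minus Foxa1, where 5 libraries allow no exact p under 0.0625. Whole gene spans turned Foxa3 minus Foxa2 to -0.19 and Hnf4a minus Hnf4g to 0.10. Between the sets, genes higher and lower in replicates 4 to 6 numbered 790 and 203 with no filter, 512 and 203 by DESeq2, and 0 to 1656 and 0 to 561 with 1 library left out, with 1656 and 561 without replicate 4, 366 and 369 without replicate 5 and 0 without any other. The Hnf4a set difference was -0.34 with no filter, -0.14 by DESeq2 and -0.56 to 0.32 with 1 library left out, and that of Foxa2 -0.39 to 0.042 (0.012 without replicate 2). No paired analysis between groups was possible because all libraries form 1 group, and the only pairing was of paralogues within a library. Without ribosomal RNA in the total the mean of Foxa3 was 9.91 TPM and that of Foxa2 4.43 TPM. Depth limits Pdx1 and Foxa1, with 36 and 5 counts in all, and the 4 counts of Onecut1 come from its few countable bases.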

Other observations

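Plut, the antisense gene over the Pdx1 start (chromosome 5, 147228596 to 147271521, minus strand), had 25, 26 and 34 counts in replicates 4 to 6, against 6, 16 and 9 counts in replicates 1 to 3. Over its 41363 countable bp that was 4.38 times the expected background in all, and over 3 times in 5 of 6 libraries. Of the other antisense genes, Prox1os had 27 counts, 0.906 times the expected number, and Hnf4aos 3 counts, 1.12 times, while Gm28172 at Prox1 had no countable base. Strand settings are not given, so a read in the countable part of Plut cannot be assigned to a strand.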
